A study of Mus musculus with 10 samples.

Results

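Antioxidant enzymes were described in mouse gastrocnemius, the large calf muscle, through 10 genes: the superoxide dismutases Sod1, Sod2 and Sod3, catalase (Cat), the glutathione peroxidases Gpx1 and Gpx3, Gclc and Txnrd1 of thiol supply, and the quinone and haem enzymes Nqo1 and Hmox1. The genes form a list of enzymes chosen with earlier results of these data known, and each was taken through its probe set with a single gene symbol in the platform annotation. Each of the 10 genes had 1 such probe set, and all 10 passed the filter that kept 11963 of 19938 genes (a mean log2 signal at or above 3.23, the 40th percentile). The study asked whether exercise of C57BL/6 mice leaves traces in the muscle of their sedentary descendants. RNA of males was hybridised to Affymetrix whole-transcript arrays, with 5 animals pooled on each of 10 arrays. The F0 EX group had voluntary exercise and the F0 SED group a sedentary life, both were 28 weeks old, and each had 1 pool. The descendants, sons (F1) and grandsons (F2), were all sedentary and 8 weeks old, and their groups, named by ancestry (F1 EX and F1 SED, then F2 EX and F2 SED), were measured in 2 pools apiece. F0 animals were mated with partners of the same exposure and F1 animals with littermates.

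Antioxidant enzymes work in sequence. Superoxide dismutases turn superoxide, which leaks from mitochondria and oxidases, into hydrogen peroxide, and catalase and the glutathione peroxidases remove the peroxide. Glutathione and thioredoxin supply the electrons and are kept reduced at the cost of NADPH. The transcription factor Nrf2 (gene Nfe2l2) is known to raise Nqo1, Hmox1, Gclc and Txnrd1 under oxidative or electrophilic stress through antioxidant response elements. In working muscle, contraction is a known source of superoxide.

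Values are log2 probe set signals as the authors deposited them. Differences are on the same log2 scale, and levels of different genes were not compared, because probe sets differ in brightness. All 10 skeletal muscle markers were kept, and their summed linear signal was 69260 in F0 EX, 57810 in F0 SED and between 62300 and 75280 in the descendant pools. A pair of arrays stood apart from the rest. Across kept genes the median Pearson r with the other arrays was 0.974 for F0 SED and 0.979 for F1 EX pool 1, and between 0.986 and 0.993 for the others. Tissue was taken whole, so fewer cells of a type and less RNA per cell cannot be told apart.

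**Figure D1:**
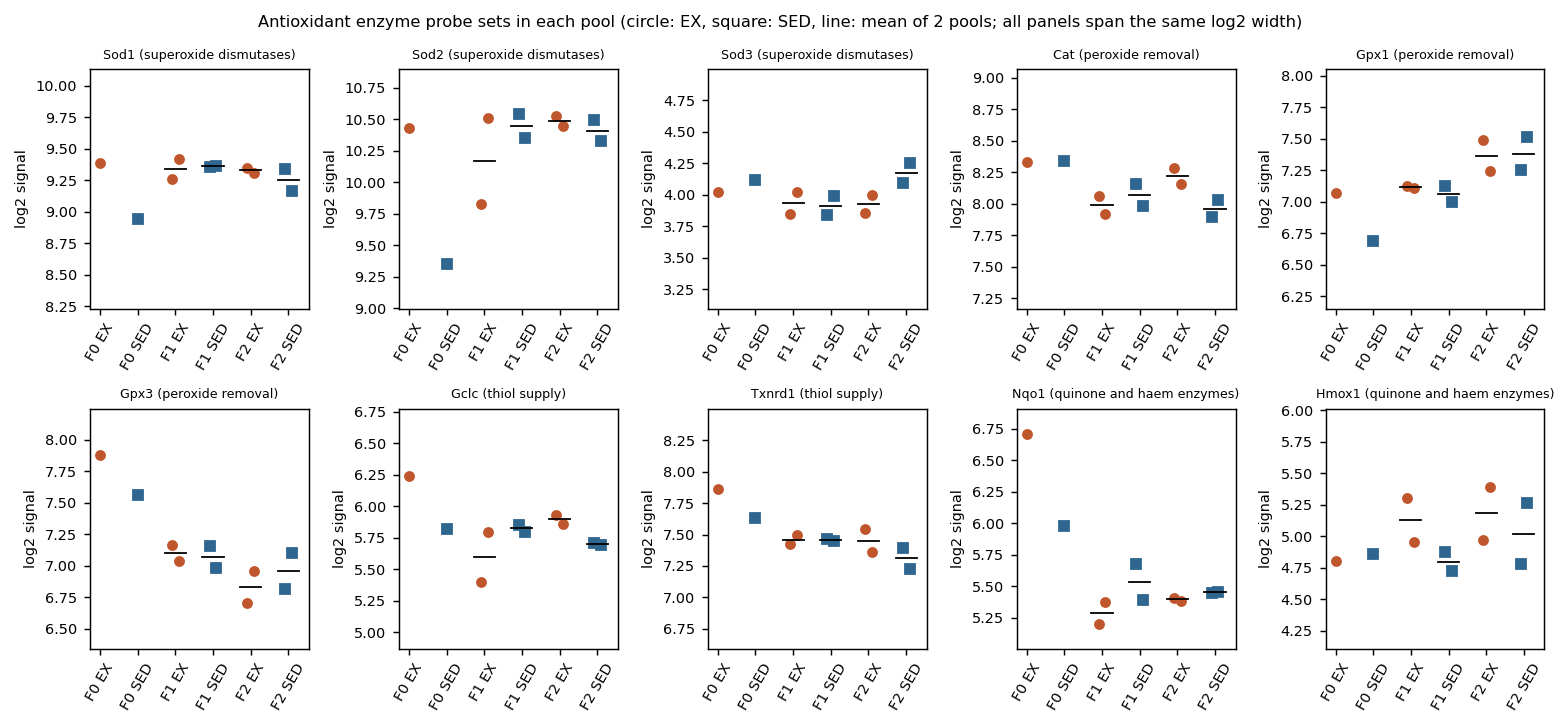
Log2 signal (vertical axis) of the 10 antioxidant enzyme probe sets in each of the 10 pools, by group (horizontal axis). Circles are EX pools, squares SED pools, and lines means of 2 pools. Nqo1, Gpx3, Txnrd1 and Cat stand above all 8 descendant pools in both F0 pools. Sod2 is lowest in F0 SED (9.35) and next lowest in F1 EX pool 1 (9.83).

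F0 animals were first set against their descendants, a comparison of 2 pools with 8. Age and breeding differ together for both F0 pools, and exercise as well for F0 EX, and these cannot be told apart. F0 SED and all descendants were sedentary. Nqo1 and Gpx3 were higher in F0, and the other 8 enzymes did not pass the test. Nqo1, which reduces quinones by 2 electrons and so avoids reactive semiquinones, was 1.901-fold higher, and Gpx3, the secreted selenium-dependent glutathione peroxidase of plasma and extracellular fluid, was 1.66-fold higher. The 2 called members of 10 compare with 2.33% of all 11963 genes called in this comparison (adjusted p under 0.05), with 0.794% called higher and 1.54% called lower. The list was drawn up with results of these data known, so these shares are a description.

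Nqo1 had log2 signals of 6.71 in the F0 EX pool and 5.98 in the F0 SED pool, and the descendant pools had a lowest of 5.20, a median of 5.40 and a highest of 5.68. Both F0 pools lay above every descendant pool, with F0 EX the farther. The difference was 0.93 (SE 0.17, 95% interval 0.56 to 1.30, limma adjusted p = 0.0144). Ordered by level, F0 EX was followed by F0 SED, then by F1 SED (mean 5.54), F2 SED (5.45), F2 EX (5.40) and F1 EX (5.29). The F1 SED pools, at 5.68 and 5.39, spread over 0.29, and the F2 SED pools (5.45 and 5.46) lay between them. The F2 EX pools (5.4116 and 5.3870) lay just below the F2 SED pools without overlap, with the lower F1 SED pool (5.3907) between them, and the F1 EX pools (5.20 and 5.38) just below the F2 EX pools. The gap of 0.73 between F0 EX and F0 SED was larger than the distance between any of the 2 pools of a descendant group, but each F0 group had 1 pool.

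Gpx3 had log2 signals of 7.88 in the F0 EX pool and 7.57 in the F0 SED pool, and the descendant pools had a lowest of 6.71, a median of 7.01 and a highest of 7.16. Both F0 pools again lay above every descendant pool. The difference was 0.73 (SE 0.13, 95% interval 0.45 to 1.01, limma adjusted p = 0.0130). After F0 EX and F0 SED, the order was F1 EX (mean 7.10), F1 SED (7.07), F2 SED (6.96) and F2 EX (6.84). The pools of each neighbouring pair of descendant groups overlapped, the F2 SED pools lying at 6.81 and 7.10 and the F2 EX pools at 6.71 and 6.96.

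Leaving out either F0 array leaves 1 F0 pool, which is then assumed to vary like the descendant pools. With ancestry in the model, that pool is set against the descendants of its own ancestry. Without F0 EX both calls ended, and Nqo1 was 0.49 higher in F0 SED than in the SED descendants and Gpx3 0.55 higher. Without F0 SED, the array that stood apart, Nqo1 was 1.37 higher in F0 EX than in the EX descendants and Gpx3 0.91 higher. With array weights the calls ended at nearly unchanged size, with 0.92 for Nqo1 (adjusted p = 0.0821) and 0.75 for Gpx3 (adjusted p = 0.222). Against F1 alone the Gpx3 difference was 0.64 (adjusted p = 0.0573).

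Of the thiol genes, Txnrd1, the cytosolic thioredoxin reductase, had log2 signals of 7.86 in the F0 EX pool and 7.63 in the F0 SED pool, and the descendant pools ran from 7.23 through a median of 7.44 to 7.54. Both F0 pools lay above the descendants by a margin smaller than for Nqo1, and the difference of 0.33 (SE 0.11) had a limma adjusted p of 0.139. Gclc, the catalytic subunit of the enzyme that limits glutathione synthesis, had 6.25 in the F0 EX pool and 5.82 in the F0 SED pool, against a descendant lowest of 5.40, median of 5.80 and highest of 5.93. Only the F0 EX pool was above all descendants, and the difference of 0.28 (95% interval -0.04 to 0.60) did not pass (adjusted p = 0.359).

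The region upstream of the start site is shown for Nqo1 and Gpx3, which passed the test, and for 1 of 3 annotated starts of Txnrd1. That start was picked because its window holds the element core. The other Txnrd1 windows hold no core and are not shown. Nor is the window of Cat, which holds none either, though the F0 pools of Cat, like those of Txnrd1, lay above all descendants. The sequences are RefSeq's of build GRCm38.p6, 5′ to 3′ on the strand of the gene, and each is the 250 bases before an annotated start site. Capitals mark the antioxidant response element core TGACNNNGC and the GC box GGGCGG, each searched on both strands. The AP-1 motif TGANTCA was searched too and was in none of them, and no marked motif overlaps another.
Nqo1, chr8:107403206-107403455, minus strand: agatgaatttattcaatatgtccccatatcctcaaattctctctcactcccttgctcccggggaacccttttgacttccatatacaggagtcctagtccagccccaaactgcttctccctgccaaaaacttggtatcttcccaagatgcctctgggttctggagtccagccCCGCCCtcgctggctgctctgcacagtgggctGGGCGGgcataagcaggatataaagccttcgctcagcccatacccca
Gpx3, chr11:54902604-54902853, plus strand: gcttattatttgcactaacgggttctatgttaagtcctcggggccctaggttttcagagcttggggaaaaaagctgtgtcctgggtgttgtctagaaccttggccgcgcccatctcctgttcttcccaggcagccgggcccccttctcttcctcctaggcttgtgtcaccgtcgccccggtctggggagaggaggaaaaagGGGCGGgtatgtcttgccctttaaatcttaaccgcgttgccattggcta
Txnrd1, chr10:82858956-82859205, plus strand: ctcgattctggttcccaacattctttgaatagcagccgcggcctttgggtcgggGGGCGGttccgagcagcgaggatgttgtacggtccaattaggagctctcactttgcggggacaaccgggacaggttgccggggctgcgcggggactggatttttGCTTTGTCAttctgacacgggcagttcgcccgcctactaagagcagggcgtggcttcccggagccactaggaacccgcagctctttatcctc
The element core stands 92 bases before this Txnrd1 start, and neither the Nqo1 nor the Gpx3 window holds its letters. Bases more than 250 upstream were not searched. Windows were found for 7 of the 10 genes, 9 windows in all, and none for Hmox1, Gclc and Sod3. Of these 9, 2 held the core (the other in Sod1, 56 bases before its start), against 10.2% of all 32851 windows of the same length. The GC box was in 6 of the 9 windows, against 32.7% of all windows, with 2 in Nqo1 (79 and 47 bases before the start) and 1 in Gpx3 (49 bases before it). The AP-1 motif was in 0 of the 9 and in 6.75% of all. A match describes letters and says nothing of binding.

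Among the peroxide removers, catalase, the peroxisomal enzyme, had 8.33 in the F0 EX pool and 8.34 in the F0 SED pool, against a descendant lowest of 7.89, median of 8.04 and highest of 8.28. Both F0 pools lay just above the descendants, and the difference of 0.27 (SE 0.12) did not pass (limma adjusted p = 0.254). Gpx1, the glutathione peroxidase of cytosol and mitochondria, had the opposite sign to Gpx3. It had 7.07 in the F0 EX pool and 6.69 in the F0 SED pool, against a descendant lowest of 7.0002, median of 7.19 and highest of 7.51. F0 SED was below all other arrays while F0 EX lay within the descendants, and the difference of -0.35 (95% interval -0.62 to -0.08) had an adjusted p of 0.166.

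The superoxide dismutases did not pass either. Sod2, the manganese enzyme of the mitochondrial matrix, had 10.43 in the F0 EX pool and 9.35 in the F0 SED pool, against a descendant lowest of 9.83, median of 10.47 and highest of 10.54. The low values belonged to F0 SED and F1 EX pool 1, the arrays that stood apart, and the remaining 7 descendant pools lay between 10.32 and 10.54. The F0 difference of -0.49 (SE 0.24, limma adjusted p = 0.310) therefore changed with the arrays used. It was -1.08 without F0 EX and 0.10 without F0 SED. Each value came from 1 F0 pool, assumed to vary like the descendant pools and set against descendants of its own ancestry. The 1197 kept genes with the highest mean signals, Sod2 among them, had a median deviation from their own means of -0.22 on the F0 SED array and 0.01 on the array of F1 EX pool 1, while Sod2 deviated by -0.93 and -0.45 there. Whether the state of these arrays accounts for the Sod2 values was not tested. Sod1, the copper and zinc enzyme of the cytosol, had 9.39 in the F0 EX pool and 8.95 in the F0 SED pool, against descendant pools from 9.17 to 9.42, and a difference of -0.15 (adjusted p = 0.540) that was 0.05 without F0 SED. Sod3, the extracellular enzyme, had 4.03 in the F0 EX pool and 4.12 in the F0 SED pool, within the descendants (3.84 to 4.26), and a difference of 0.08 (95% interval -0.17 to 0.33).

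Hmox1, the inducible haem oxygenase, did not pass the test. It had 4.81 in the F0 EX pool and 4.86 in the F0 SED pool, inside the descendant range of 4.72 to 5.40, and a difference of -0.20 (95% interval -0.55 to 0.15, limma adjusted p = 0.562). Over the 10 enzymes 6 estimates were above 0, with a median of 0.18, where 45.1% of all kept genes had estimates above 0 and their median was -0.02. Both F0 pools lay above all 8 descendants in 4 members (Nqo1, Gpx3, Txnrd1 and Cat), which compares with 5.79% of all kept genes, and below them in none, against 6.65%.

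**Figure D2:**
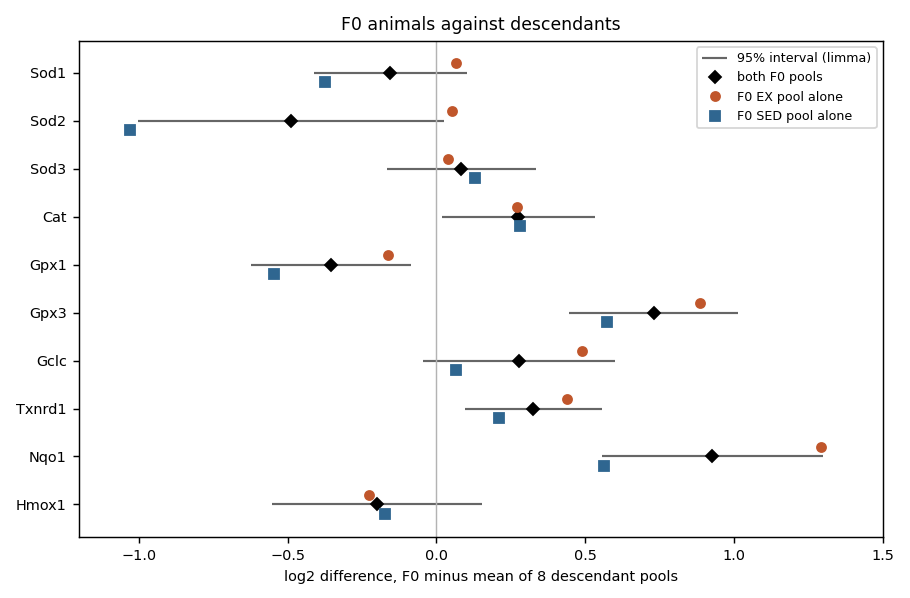
Log2 difference between F0 and the mean of the 8 descendant pools (horizontal axis) for each antioxidant enzyme. Diamonds with 95% intervals are the limma estimates from both F0 pools, circles the F0 EX pool alone and squares the F0 SED pool alone. Nqo1 (0.93) and Gpx3 (0.73) are the enzymes that passed, and for Sod2 the F0 EX and F0 SED pools lie far apart.

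Genes around these enzymes were counted in 11 lists, which share some genes. Over all kept genes 0.794% were called higher and 1.54% lower, and no list had more than 1 called gene. The list of Nrf2 regulators and classical targets had 28 kept genes, of which 1 passed as higher in F0 (Nqo1) and 0 as lower, with a median difference of 0.06. In that list Mafg, a small Maf partner of Nrf2, came next at 0.37 (limma adjusted p = 0.105). Glutathione synthesis and recycling had 1 of 18 higher (Gpx3) and 0 lower, and a median of 0.02. Its glutathione reductase Gsr, which restores reduced glutathione, was at 6.82 in the F0 EX pool and 6.94 in the F0 SED pool, above the descendants (6.20 to 6.60), with a difference of 0.48 and an adjusted p of 0.0576. Among superoxide and peroxide sources 1 of 12 passed, the molybdenum enzyme Aox1, which oxidises aldehydes and yields superoxide and peroxide. Aox1 had 6.74 in the F0 EX pool and 6.17 in the F0 SED pool, against 5.58 to 5.96 in descendants, and was 1.61-fold higher (difference 0.69, SE 0.14, adjusted p = 0.0256), a call that ended without F0 EX (0.38, adjusted p = 0.127). In haem and iron handling 1 of 19 was called, the transferrin receptor Tfrc, which imports iron. Tfrc was lower in F0, with 9.49 in the F0 EX pool and 9.20 in the F0 SED pool against 9.69 to 10.20 in descendants (difference -0.58, SE 0.12, adjusted p = 0.0309), and this call ended without F0 SED (-0.42, adjusted p = 0.307). Both calls ended with array weights (adjusted p = 0.211 for Aox1 and 0.412 for Tfrc), Aox1 also against F1 alone (0.111) and Tfrc against F2 alone (0.119). They ended as well when certain single descendant pools were left out, with adjusted p up to 0.0583 for Aox1 and 0.0691 for Tfrc.

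In the other 7 lists no gene passed with limma. They were the glutathione S-transferases (18 kept genes, 5 with an unadjusted p under 0.05), the thioredoxin and peroxiredoxin system (18, 4), NADPH-producing enzymes (14, 4), copper and manganese supply (11, 2), selenoprotein synthesis and selenium transport (16, 2), peroxisomal genes (19, 4) and metallothioneins with stress-inducible genes (13, 6). An unadjusted p under 0.05 was found in 17.6% of all kept genes. Their medians lay between -0.10 for metallothioneins and stress genes and 0.14 for NADPH-producing enzymes. The genes with the smallest p were Gstt1 (0.39), the stress protein Sesn2 (0.43), the mitochondrial NADPH transhydrogenase Nnt (0.46), the iron exporter ferroportin, Slc40a1 (0.43), the selenophosphate synthetase Sephs2 (0.40), the peroxisomal import receptor Pex7 (0.35) and the metallothionein Mt3 (-0.49), with adjusted p between 0.0628 for Nnt and 0.191 for Sephs2. With quantile normalization Nnt (0.0251), Sesn2 (0.0392) and Slc40a1 (0.0487) passed, and with the means of 6 groups Mt3 (0.0349), Sesn2 (0.0376), Nnt (0.0395) and, from the glutathione list, Gsr (0.0445) did.

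**Figure D3:**
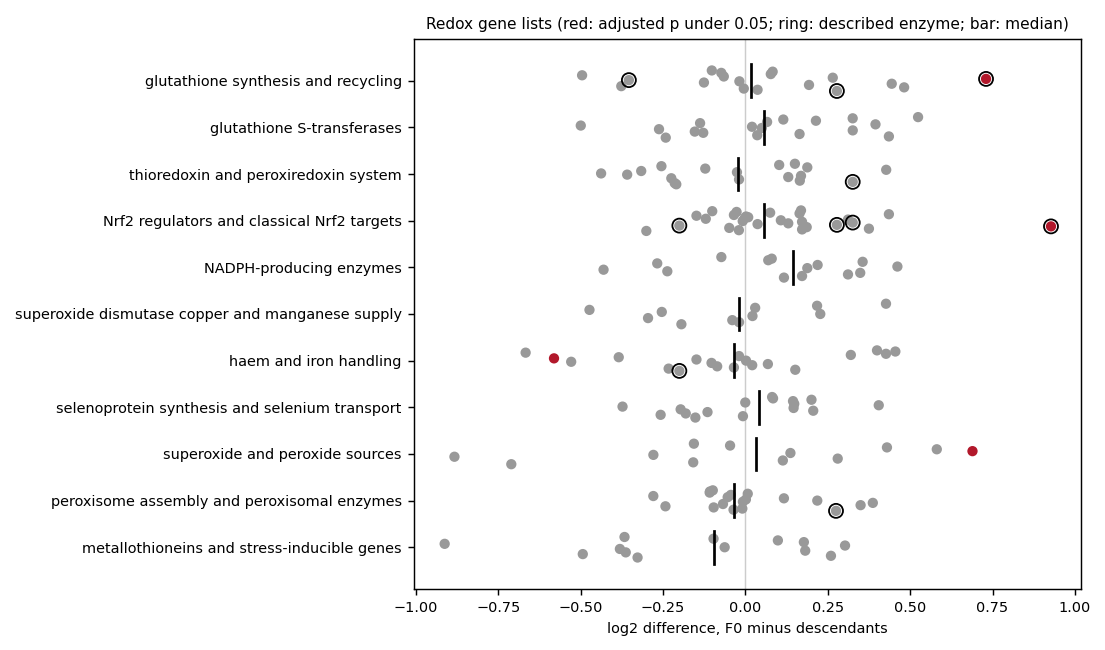
Log2 difference between F0 and descendants (horizontal axis) for the kept genes of 11 redox lists. Each point is a gene, red where the adjusted p is under 0.05, ringed where it is one of the 10 antioxidant enzymes, and bars are list medians. The red points are Gpx3, Nqo1, Tfrc and Aox1, and the medians lie between -0.10 and 0.14.

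The genes whose profiles over the 10 arrays lay closest to Nqo1, by the mean absolute difference of deviations from each gene's own mean, were Aldh1a1 (0.101), Inmt (0.102), Hook1 (0.108), Tmem100 (0.119) and Plekhb1 (0.121). Aldh1a1, a retinaldehyde dehydrogenase, had 9.62 in the F0 EX pool and 8.90 in the F0 SED pool, against 8.37 to 8.82 in descendants. Closest to Gpx3 were Ttll7 (0.0977), Ppp1r14bl (0.106), Tfcp2l1 (0.109), Prodh (0.111) and again Plekhb1 (0.116). Plekhb1 had 7.60 in the F0 EX pool and 7.41 in the F0 SED pool, against 6.70 to 6.89 in descendants. The arrays behind these profiles are the same for every gene, and the ranking is a description.

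Markers of other cells moved between F0 and descendants too, where 0.794% of all kept genes were called higher and 1.54% lower. The summed linear signal of 10 fibroblast markers was 4697 in the F0 EX pool and 3676 in the F0 SED pool, against 9418 to 11950 in descendants, and 4 of the 10 were called lower. The 10 endothelial markers summed to 1048 in the F0 EX pool and 911.8 in the F0 SED pool, against 1192 to 1321, with 2 called lower, and the 15 myeloid markers to 767.5 and 632.9, against 781.6 to 1076, with none called. Of 8 keratinocyte markers 4 were kept and 2 called higher, and the 8 summed to 122.4 in the F0 EX pool and 222.7 in the F0 SED pool, against 68.3 to 93.8, while Krt1, Lor, Dsp and Krt15 had means below the median of all probe sets. The 8 adipocyte markers summed to 1443 in F0 EX, above the descendants (991.4 to 1379), and to 1008 in F0 SED, within them. Their mean log2 deviation from their own means was 0.17 in F0 EX and 0.09 in F0 SED, both within the descendants (-0.38 to 0.35). Sums of smooth muscle markers overlapped (3828 in the F0 EX pool and 3962 in the F0 SED pool, against 3548 to 4034). Their mean deviation was -0.096 in both F0 pools, just below the descendants (-0.078 to 0.118). Sums of the 3 erythroid markers on the array overlapped too (37.1 and 38.8, against 28.3 to 58.6). The 6 hepatocyte markers summed to 125.6 in the F0 EX pool and 90.5 in the F0 SED pool, against 157.7 to 1434, with 1 called lower. The part of these cells in the antioxidant values was not tested.

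Exercised and sedentary F0 animals were compared next, the groups that were themselves exposed. With 1 pool a group there is no test, and differences are given by size only. Sod2 was 1.08 higher in F0 EX and Nqo1 0.73 higher. These were the 2 of 10 enzymes past 0.5 on the log2 scale as deposited, where 15.3% of all kept genes were at least 0.5 higher in F0 EX and 5.38% at least 0.5 lower. Sod1 differed by 0.44, Gclc by 0.42, Gpx1 by 0.38, Gpx3 by 0.31 and Txnrd1 by 0.23, and Cat (-0.01), Hmox1 (-0.05) and Sod3 (-0.09) by little. The median of the 10 was 0.35, and that of all kept genes 0.08. Kept genes were also split by mean signal into 10 bins, and each bin's median deviation from the genes' own means was taken. It was 0.09 on F0 EX and -0.22 on F0 SED in the bin of Sod1 and Sod2. For Cat and Txnrd1 it was 0.10 and -0.12, for Gpx1 and Gpx3 0.10 and -0.10, and for Gclc and Nqo1 0.06 and -0.04. For Hmox1 it was -0.007 and -0.03, and for Sod3 -0.08 and -0.006. Of these bins, all but that of Sod3 read lower on F0 SED. In Sod1, Sod2 and Gpx1 the F0 SED array was the lowest of all 10, as it was in 27.2% of kept genes, and the F0 EX value lay within the descendants. In Nqo1, Gpx3, Gclc and Txnrd1 the F0 EX array was instead the highest of all 10, as it was in 18.5% of kept genes. The array medians over all probe sets differed by 0.15, with F0 SED the higher. Centring each array on its median raised the difference of every gene by that 0.15. Sod2 then differed by 1.23, Nqo1 by 0.88, Sod1 by 0.59, Gclc by 0.57 and Gpx1 by 0.53. These 5 enzymes were past 0.5, and the share of all genes past it with centring was not counted. With quantile normalization Sod2 differed by 0.82 and Nqo1 by 0.56. In the same setting Gpx3 differed by 0.10 and Txnrd1 by -0.0039.

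Sedentary descendants of exercised and of sedentary ancestors were then compared, the study's main question, with 4 EX pools against 4 SED pools over both generations. No antioxidant enzyme passed, and every 95% interval included 0. Hmox1 had the largest estimate, 0.25 (95% interval -0.07 to 0.56, limma adjusted p = 0.888), with 5.31, 4.95, 4.97 and 5.40 in EX pools and 4.87, 4.72, 4.78 and 5.26 in SED pools. The EX and SED pools overlapped, since F2 SED pool 2 lay at 5.26. Nqo1 had the lowest estimate, -0.15 (95% interval -0.37 to 0.06, adjusted p = 0.888), with 5.20, 5.38, 5.41 and 5.39 in EX pools and 5.68, 5.39, 5.45 and 5.46 in SED pools. Gpx3 averaged 6.97 ± 0.19 in EX pools and 7.02 ± 0.15 in SED pools (SD, n = 4 each), a difference of -0.05 (95% interval -0.28 to 0.18). The other 7 enzymes had estimates between -0.11 (Sod3) and 0.09 (Cat). The half-widths of the 10 intervals, which are not adjusted for the number of genes, lay between 0.19 and 0.32. A difference of that size would just reach an unadjusted limma p of 0.05, and passing the adjusted threshold takes a larger one. Over all genes none was called with limma either (0 of 11963, which is 0%, with 597, or 4.99%, at an unadjusted p under 0.05). None of the 10 enzymes had an unadjusted p under 0.05, and in none did the EX and SED pools separate, where EX pools lay above SED pools in 1.75% of kept genes and below them in 1.28%.

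Within F1, with 2 pools against 2, no enzyme passed or had an unadjusted p under 0.05, which 4.88% of kept genes had. Hmox1 had 5.31 and 4.95 in F1 EX and 4.87 and 4.72 in F1 SED, a difference of 0.33 (SE 0.21). Nqo1 had 5.20 and 5.38 in F1 EX and 5.68 and 5.39 in F1 SED, a difference of -0.25 (SE 0.14). In these genes the pools did not overlap, which was so for 13.0% of all kept genes with EX higher and 16.6% with EX lower. Each had a limma adjusted p of 0.804. Gclc had 5.40 and 5.80 in F1 EX and 5.85 and 5.80 in F1 SED, and its difference of -0.23 was -0.03 without F1 EX pool 1. Sod2 had 9.83 and 10.51 in F1 EX and 10.54 and 10.35 in F1 SED, and its difference of -0.28 was 0.07 without that pool. With pool 1 as the only F1 EX array, taken to vary like the other groups, the Sod2 difference was -0.62 (limma adjusted p = 0.0370), in a fit that called 1046 genes.

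Within F2, Cat had 8.28 and 8.16 in F2 EX and 7.89 and 8.03 in F2 SED, a difference of 0.26 (SE 0.13, limma adjusted p = 1.00). Gclc had 5.93 and 5.86 in F2 EX and 5.71 and 5.69 in F2 SED, a difference of 0.19 (SE 0.15). Sod3 had 3.85 and 3.997 in F2 EX and 4.10 and 4.26 in F2 SED, a difference of -0.25 (SE 0.13), and Nqo1 differed by -0.05. In these 4 genes the pools did not overlap, as in 25.8% of kept genes with EX higher and 14.6% with EX lower, and none passed or had an unadjusted p under 0.05, which 4.45% of kept genes had. The ancestry effects of F2 and F1 were also set against each other. Gclc had the largest difference of effects, 0.42 (95% interval -0.05 to 0.89, limma adjusted p = 0.919), which was 0.22 without F1 EX pool 1, and Cat had 0.34 (95% interval -0.08 to 0.75). None of the 10 passed, and over all genes 0 were called (0%), with 519, or 4.34%, at an unadjusted p under 0.05 and none of the enzymes among them.

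**Figure D4:**
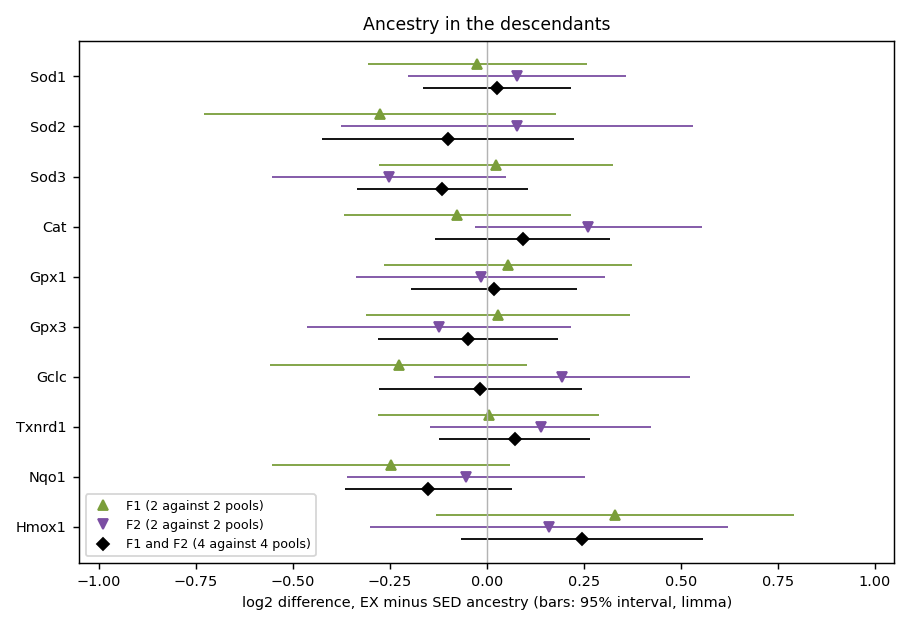
Log2 difference between EX and SED ancestry (horizontal axis) for each antioxidant enzyme. Upward triangles are F1, downward triangles F2 and diamonds both generations, and bars are 95% intervals from limma. Every interval includes 0, and the estimates over both generations lie between -0.15 (Nqo1) and 0.25 (Hmox1).

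F2 and F1, sedentary animals of the same age, were compared last, with 4 pools each. Gpx1 had 7.49, 7.25, 7.25 and 7.51 in F2 and 7.13, 7.11, 7.13 and 7.0002 in F1. All F2 pools lay above all F1 pools, which was so for 1.77% of kept genes, and no enzyme had the reverse, as 1.11% of kept genes did. The difference of 0.28 (SE 0.10, 95% interval 0.07 to 0.50) had a limma p of 0.0143 before adjustment and an adjusted p of 0.911, so it did not pass. Gpx3 had the opposite sign, with 6.90 ± 0.17 in F2 pools and 7.09 ± 0.09 in F1 pools (SD, n = 4 each) and a difference of -0.19 (95% interval -0.42 to 0.04). The other 8 estimates lay between -0.08 (Txnrd1) and 0.14 (Sod2), and Nqo1 was at 0.01 (95% interval -0.20 to 0.23). None of the 10 enzymes passed, nor did any gene in this fit (0%, with 509 genes, or 4.25%, at an unadjusted p under 0.05, Gpx1 the 1 enzyme among them).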

How the data were processed

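RNA of 10 pools of 5 males was measured on 1 array each. The authors deposited log2 probe set signals, a scale read here from their range (0.966 to 14.2 over 35557 probe sets). Affymetrix Expression Console appears in the submitters' processing notes, with neither its settings nor a build in the sources used here. Probe sets with 1 symbol (21789) gave 19938 genes, each by its highest-mean probe set, and those at or above the 40th percentile of mean signal (11963) were tested. limma 3.58.1 in R 4.3.3 (lmFit, eBayes) was used with Benjamini-Hochberg adjustment over these genes and a threshold of 0.05. F0 was compared in a model with generation and ancestry as additive terms on 10 arrays, ancestry over both generations and F2 against F1 in the same model on 8 arrays, and F1, F2 and their difference in a model of 4 group means. On the 10 arrays 1 term stands for the exercise of F0 animals and for ancestry in descendants, taken as equal. For Nqo1 the EX minus SED difference was 0.73 in F0 and -0.15 in descendants, and such a mismatch enters the estimated spread. The fits were tested on simulated data. Labels do not say that pools of a group hold different animals, so p-values reflect no more than how far these pools differ, possibly for technical reasons. The number of arrays limits the precision. Members and gene lists were chosen with earlier results of these data known. All 10 enzymes were described. From each list, up to 4 called genes, or otherwise the gene with the smallest p, were named, as were the 5 nearest profiles of Nqo1 and Gpx3. Enrichment was not tested. Alternatives were other normalizations, filters, variance settings, array weights, averaged probe sets, a pool-number block and left-out arrays.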

Additional observations from a re-analysis of the deposited data

Results flagged for a closer look

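In 50 groups of 4 or 8 pools (10 enzymes in the descendants, EX, SED, F1 and F2 pools), 6 had a pool far from the others by Dixon's criterion, which chance gives in about 5% of groups, and the groups share pools. F1 EX pool 1 was the far pool in 4 of them. Its Sod2 signal of 9.83 was far below the other descendant pools (nearest 10.32) and below the other EX pools (nearest 10.45). Its Gclc signal of 5.40 was far below the other descendants (nearest 5.69) and the other F1 pools (nearest 5.80). F2 SED pool 2 had a Sod1 signal of 9.17 against a nearest SED pool at 9.34. F1 SED pool 2 had a Gpx1 signal of 7.0002 against a nearest F1 pool at 7.11.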

How the results depend on the processing

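Nqo1 and Gpx3 were higher in F0 than in descendants under all 21 alternatives (0.49 to 1.37 for Nqo1 and 0.55 to 0.95 for Gpx3), and they stayed past the threshold in 19 and 18. The number of called enzymes, 2 in F0, was 0 with array weights, 1 against F1 alone (Nqo1), and 1 to 2 when 1 array was left out (without F0 EX it was Sod2 alone, with neither Nqo1 nor Gpx3). The 279 genes called in F0 became 38 with array weights, 170 without both F0 SED and F1 EX pool 1, 532 with the means of 6 groups, 156 against F1 alone, and 86 to 1231 when 1 array was left out (86 without F0 SED, 1231 without F0 EX, 584 without F1 EX pool 1, 185 without F2 EX pool 2 and 181 without F2 SED pool 2). Sod1 in F0 was 0.012 without both F0 SED and F1 EX pool 1, and with 1 array left out it ranged from -0.36 to 0.054 and Sod2 from -1.08 to 0.10. In the descendants, 0 genes called became 0 to 1046 in F1 and 0 to 143 for the difference of effects when 1 array was left out, and enzymes called in F1 became 0 to 1 (Sod2). F2 against F1 called 2 genes when eBayes used its trend and robust options, and 1 with array weights. Between F0 EX and F0 SED, 5 enzymes were past 0.5 with centring, which raised the difference of every gene alike. The share of all genes past 0.5 in that setting was not counted.

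Some enzyme values in the descendant comparisons changed sign. Among redox genes not called in F0, the 60th percentile filter called Gsr (adjusted p = 0.0419), Nnt (0.0457) and Mt3 (0.0491), and trend and robust options Gsr (0.0480). Without F1 EX pool 1 Gsr, Mafg, Nnt and Mt3 passed, and without F2 EX pool 1 Gsr did. Without F0 EX, from the F0 SED pool alone, the difference was 0.57 for Gsr, 0.61 for Sesn2 and -0.705 for Mt3. Over both generations Sod2 was 0.029 and Gclc 0.081 with array weights, and with the F0 pair included Sod2 was 0.14, Gpx3 0.025, Gclc 0.071 and Nqo1 0.025. With centring, F1 values were -0.0087 for Sod3, -0.0031 for Gpx3 and -0.026 for Txnrd1, F2 values 0.045 for Gpx1 and 0.0060 for Nqo1, and the difference of effects 0.022 for Gpx1. With quantile normalization Sod1 in F1 was 0.031, and with array weights Gclc in F2 against F1 was -0.0057. With 1 array left out, values over both generations ranged from -0.072 to 0.11 for Gclc, -0.027 to 0.080 for Gpx1, -0.10 to 0.026 for Gpx3, -0.018 to 0.069 for Sod1 and -0.20 to 0.073 for Sod2. In F1 the ranges were -0.16 to 0.0076 for Cat, -0.0083 to 0.12 for Gpx1, -0.058 to 0.11 for Gpx3, -0.10 to 0.055 for Sod1, -0.62 to 0.065 for Sod2, -0.067 to 0.11 for Sod3 and -0.028 to 0.039 for Txnrd1. In F2 they were -0.15 to 0.12 for Gpx1, -0.27 to 0.023 for Gpx3, -0.082 to 0.40 for Hmox1, -0.0081 to 0.16 for Sod1 and -0.0080 to 0.16 for Sod2. For the difference of effects they were -0.20 to 0.064 for Gpx1 and -0.41 to 0.072 for Hmox1. For F2 against F1 they were -0.0027 to 0.13 for Cat, -0.035 to 0.14 for Gclc, -0.039 to 0.092 for Nqo1 and -0.031 to 0.24 for Sod2. The causes were not tested.

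The pool numbers of the labels did not pair the descendant pools (correlations of deviations between -0.111 and 0.0643 in 6 pairs of groups), and with the replicate block 0 genes and 0 enzymes were called in each descendant comparison. F0 pools carry no number, so the block was not used there. Without F0 SED and F1 EX pool 1, descendant fits are those without F1 EX pool 1. Sod3 did not pass the filter at the 60th percentile and has no value there. Detection calls were not used, so a signal near the floor was not told from background.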
